A study of Mus musculus with 14 samples.

Results

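In cells given SaCas9 with guide g2 alone (SaCas9g2), 496 regions of the mouse genome were read as sequence fused to the Hao1 target, among 730 such regions over the 3 nuclease treatments of the study. A region was taken where the deposited table of all SaCas9g2 regions gave it a chromosome, so that no measured value entered the choice. One region was the target itself (on-target, ON) and 495 lay elsewhere. Mouse embryonic fibroblasts (MEFs) of the CF-1 stock were nucleofected with 3 µg of SaCas9 protein complexed with 72 pmol of guide RNA, and genomic DNA was taken on day 6. The labels list 4 SaCas9g2 libraries, 4 libraries of cells given both guides (SaCas9g1+g2), 2 libraries of guide g1 alone (SaCas9g1) and 4 libraries of untreated MEFs, which the authors used as the control of all 3 treatments. The SaCas9g2 columns are named g2-A-MEF, g2-B-MEF, Hao1-g2A and Hao1-g2B, and the labels do not say which of these libraries came from 1 culture. In all there were 2 biological replicates of SaCas9g2, 3 of SaCas9g1+g2 and 1 of SaCas9g1, so some libraries were technical repeats. SDs and p-values below count libraries and so treat such repeats as replicates. The annealing step of the first PCR was run at 63 °C for SaCas9g2 and at 61 °C for the other treatments, so guide and temperature cannot be told apart. The authors' results also bear the name DCASTseq for SaCas9g1+g2 and CASTseq for the single guides. Any difference of assay behind these names cannot be told apart from the treatment either.

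SaCas9, from Staphylococcus aureus, cuts both DNA strands next to a short motif, the PAM, where its guide RNA pairs with the DNA. Hao1 encodes glycolate oxidase, an enzyme of the liver peroxisome that makes the precursor of oxalate. CAST-Seq, a sequencing assay for chromosomal aberrations at a chosen cut, starts from a bait primer beside the cut and reads whatever sequence has become joined to it, which can be the same chromosome after a deletion or an inversion or another chromosome after a translocation. A hit is a distinct fusion, whereas the reads at a region also carry the PCR amplification of each fusion. The authors sorted regions into off-target-mediated (OMT) where a stretch resembles the guide, homology-mediated (HMT) where it resembles the target, and natural break sites (NBS) for the rest.

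The sequences below show the cut site of g2, the Zfp804b region as an example of those classed by guide resemblance, and the repeat on which many of the regions read in several libraries lay, since these sequences carry the patterns described further down. All were read from the GRCm38 reference, are written 5′ to 3′ on the strand given, and are named after the gene in the deposited table, which is often only the nearest gene. In the target, the capitals mark the PAM. In the Zfp804b region, they mark the positions that do not match the guide or the PAM. In the repeat sequences, they mark complete units of TTAGGG or, in the Mup7 region, of GGCAGA.
Hao1 target of g2, chr2:134548206-134548232, minus strand: gtcaacttctgttttaggacaGAGAGT
Zfp804b region, best guide alignment, chr5:7095763-7095789, minus strand: gtcaaTCtctTttttaggGAatcAaat
A630089N07Rik region, chr16:98107526-98107555, plus strand: TTAGGGttcgggTTAGGGTTAGGGTTAGGG
Ankle1 region, chr8:71433113-71433142, plus strand: TTAGGGttaggtTTAGGGTTAGGGTTAGGG
Cdh12 region, chr15:21656472-21656501, plus strand: caaaacacacagTTAGGGTTAGGGTTAGGG
Plk2 region, chr13:110603082-110603111, minus strand: TTAGGGttatggTTAGGGTTAGGGTTAGGG
Phf21a region, chr2:92093754-92093783, minus strand: TTAGGGatagggTTAGGGTTAGGGTTAGGG
Ttll10 region, chr4:156035265-156035294, plus strand: tgagggtgagggTTAGGGTTAGGGTTAGGG
Pepd region, chr7:34958214-34958243, minus strand: gacacccttaggTTAGGGTTAGGGTTAGGG
Mup7 region, chr4:60081714-60081743, plus strand: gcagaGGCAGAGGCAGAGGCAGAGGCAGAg

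The on-target region spanned chr2:134535578-134555709 and held 4039 hits and 2046897 reads. It took 486039 reads in g2-A-MEF, 379868 in g2-B-MEF, 707125 in Hao1-g2A and 473865 in Hao1-g2B. The 4 libraries held 1288375, 732585, 1716787 and 1199688 reads over all regions, in the same order. Reads outside the on-target region made up 62.3% of them in g2-A-MEF (exact Clopper-Pearson 95% interval 62.2% to 62.4%), 48.1% in g2-B-MEF (48.0% to 48.3%), 58.8% in Hao1-g2A (58.7% to 58.9%) and 60.5% in Hao1-g2B (60.4% to 60.6%). Only the shallowest library had more on-target than other reads. These intervals cover counting error only, because the reads carry no molecular identifiers.

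Reads outside the target averaged 57.4% ± 6.35 with SaCas9g2 and 25.6% ± 8.01 with SaCas9g1+g2 (SD, n = 4 libraries each), a difference of 31.8 percentage points (exact two-sided permutation test over libraries, p = 0.0286, the smallest that 4 against 4 libraries allow; adjusted p = 0.0857 over 6 comparisons). With 2 against 3 cultures as the units, the exact permutation test could not go below p = 0.2. Counting only called regions, the difference was 18.8 percentage points. The single libraries of SaCas9g1+g2 were at 15.4%, 30.9%, 23.2% and 33.0%. With SaCas9g1, the share was 9.51% ± 6.56 (technical SD, n = 2 libraries; 4.87% and 14.1%), which was 47.9 percentage points below SaCas9g2, or 23.2 with called regions only. These 2 libraries are technical repeats of 1 culture, so their SD is technical and no p is given for any comparison with them. A SaCas9g1 call had to come from both of them, so the value for called regions only does not compare like with like. No SaCas9g2 library overlapped a library of the other treatments, but the comparison with SaCas9g1+g2 did not pass 0.05 after adjustment.

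The number of regions with at least 1 read outside the target was 177 in g2-A-MEF, 162 in g2-B-MEF, 200 in Hao1-g2A and 198 in Hao1-g2B. The mean was 184 ± 18.1 regions with SaCas9g2 and 69.5 ± 18.3 with SaCas9g1+g2 (SD, n = 4 libraries each; difference 115, exact permutation test over libraries, p = 0.0286, adjusted p = 0.0857). With SaCas9g1 it was 36.5 ± 17.7 regions (technical SD, n = 2 libraries of 1 culture; difference 148, or 97 where a region needs at least 10 reads and 93.8 at an equal number of outside reads). Against SaCas9g1+g2 the difference was 84.5 where a region needs at least 10 reads and 77.6 at an equal number of outside reads. Again the libraries did not overlap. The median GC content of the regions read was 43.3% ± 0.917 with SaCas9g2 and 44.4% ± 1.08 with SaCas9g1+g2 (SD, n = 4 libraries each), a difference of -1.10 percentage points (exact permutation test over libraries, p = 0.171, adjusted p = 0.206). Counting each base once gives a mean GC weighted by region width instead of a median. The difference in that mean was -1.77 percentage points (exact permutation test over libraries, p = 0.0286, adjusted p = 0.0571). The difference in median GC from SaCas9g1 was -1.40.

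**Figure D1:**
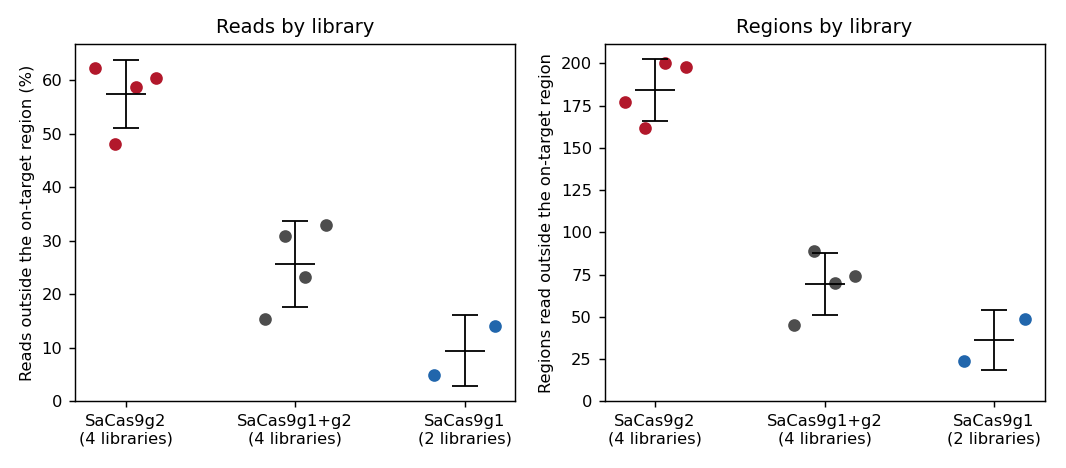
Left, the percent of reads outside the on-target region in each library, and right, the number of regions with at least 1 read there; points are libraries, with the mean and the SD as bars. The 4 SaCas9g2 libraries (48.1% to 62.3%, 162 to 200 regions) lay above every SaCas9g1+g2 and SaCas9g1 library.

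Most of the 495 regions outside the target were small. They held 2 to 460 hits (median 3) and 8 to 609842 reads (median 3382), with a median width of 504 bp and a median of 806 reads per hit. The authors' list of called sites, regions past their adjusted p against untreated cells in at least 2 libraries, contained 30 of the 496 regions (6.05%), of which 29 lay outside the target. These 29 held 1017 of the 2999 hits outside the target. By class, 480 regions were NBS, 8 OMT and 7 HMT.

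The regions split sharply by how many libraries read them. Reads came from a single library at 312 of 495 regions (63.0%), from 2 libraries at 148, from 3 at 11 and from all 4 at 24. A call needs 2 libraries, so none of the first group could be called. Of the others, 8 of 148, 3 of 11 and 18 of 24 (75.0%) were on the list, against 6.05% over all regions. The number of reads ran the other way. The median region read in 1 library had 2392.5 reads and 641 reads per hit, that read in 2 libraries 6802 reads and 1487 reads per hit, while the medians were 46 reads and 7.67 reads per hit in 3 libraries and 50 reads and 6.35 reads per hit in 4. Regions that recurred most widely were thus mostly thin in reads, and regions rich in reads mostly belonged to 1 library.

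Over all 495 regions, 448 (90.5%) had at least 99% of their reads in 1 library, and none of these was called. Regions read in no other library took 38.6% of the outside reads in g2-A-MEF, 56.9% in g2-B-MEF, 26.5% in Hao1-g2A and 37.2% in Hao1-g2B. The uncalled regions with the most reads all had this form. Ctse, the cathepsin E gene, had 45837 reads in g2-A-MEF, 6 in g2-B-MEF and none in the Hao1-named libraries, and 90.7% of its 31-base words occur elsewhere in the genome. Camk2b, a subunit of a calcium-dependent kinase, had 26031 reads in Hao1-g2B and 1 in Hao1-g2A. Mcf2l had 23618 in Hao1-g2A and 3 in Hao1-g2B, and Hcar2, the niacin receptor, had 22939 and 1. Tent5a, Mir6370, Acvr2a, a second region labelled Galnt2 (chr8:121495267-121495767), Rarb and D030045P18Rik followed with 22851, 18638, 17698, 16947, 16203 and 15871 reads, of which 1 to 3 each lay outside Hao1-g2A.

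**Figure D2:**
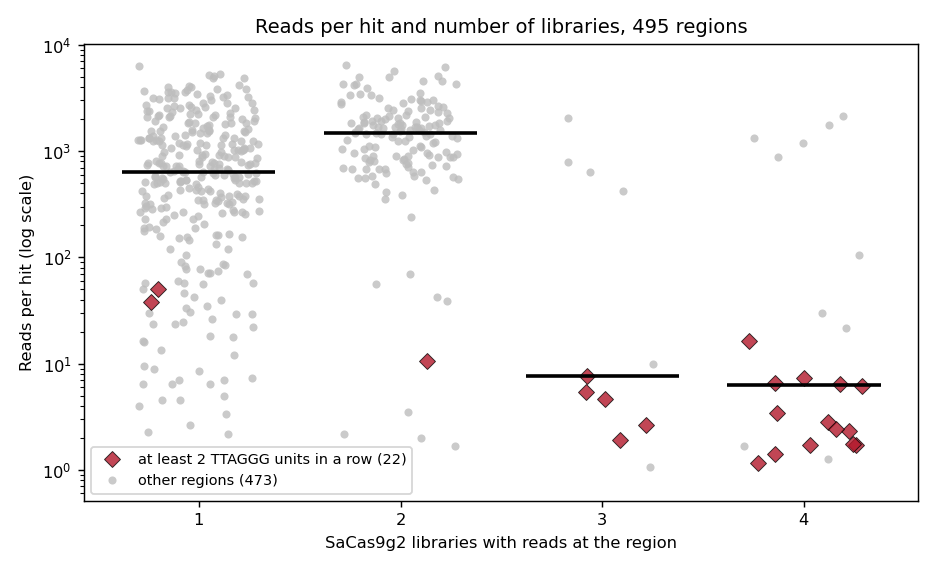
Reads per hit (log scale) of the 495 regions outside the target against the number of SaCas9g2 libraries with reads; diamonds are regions with at least 2 TTAGGG units in a row, circles are all others, and bars are medians. The medians stand at 641 and 1487 reads per hit in 1 and 2 libraries and at 7.67 and 6.35 in 3 and 4 libraries, where most diamonds lie.

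The pairs of libraries that shared a region were not alike, a pattern noticed after the values were seen and therefore given without a test. Of the 148 regions read in 2 libraries, 134 joined libraries named in the same style (86 in Hao1-g2A with Hao1-g2B, 48 in g2-A-MEF with g2-B-MEF). In these the higher library had a median of 6907 reads and the lower a median of 1 read. The lower library stayed under 10 reads at 133 of the 134, and none was called. Another 12 regions joined libraries with the same letter in their names (g2-A-MEF with Hao1-g2A, or g2-B-MEF with Hao1-g2B). Here the medians were 4539 reads in the higher and 112 in the lower library, 8 regions had at least 10 reads in both, and 8 were called. The remaining 2 regions joined libraries that shared neither style nor letter, with at most 3 reads in the lower one. The count of regions in at least 2 libraries rested on single reads. It was 183 with 1 read, 80 with at least 2 reads and 26 with at least 10 reads per library, and it was 89 without Hao1-g2A and 91 without Hao1-g2B. The deposited mark for barcode hopping read "no" for all 496 regions, and the part of such hopping in the single reads was not tested.

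The same letter pattern ran through the called sites. Among the 20 called regions outside the target that held no telomeric repeat, 11 had at least 99% of their reads in the 2 libraries of 1 letter. None had them in 2 libraries of 1 style, and none in 1 library alone. A call needs 2 libraries, and the lower library of a same-style pair had a median of 1 read. The absence of both these forms among called regions was thus largely fixed in advance. On the A side, the Slitrk5 region (chr14:112156264-112156939, near the gene of a neuronal transmembrane protein) had 5874 reads in g2-A-MEF and 12683 in Hao1-g2A, and none in the B libraries. Kif26b, a kinesin family gene hit in an exon (chr1:178917486-178917994), had 6689 and 6883 in the same libraries. 4933438K21Rik had 125 and 2336, and the Mir592 region had 10333 and 365, with 1 read in each B library.

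On the B side, Plcb1, a phospholipase C gene 786 kb from the target (chr2:135333893-135334399, intron), had 4190 reads in g2-B-MEF and 4540 in Hao1-g2B. Gm28856 had 5677 and 3048, the Adcyap1 region (the gene encodes the neuropeptide PACAP) 6105 and 1361, and 1700029N11Rik 5112 and 99. The Gata6os region had 4451 and 3878, with 2 and 1 reads in the A libraries, and the Mir467h region 4950 and 557, with 1 read in g2-A-MEF. With 3 to 11 hits each, these 11 regions were called from few distinct fusions with many reads. Whether a letter stands for a culture is not given in the labels.

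**Figure D3:**
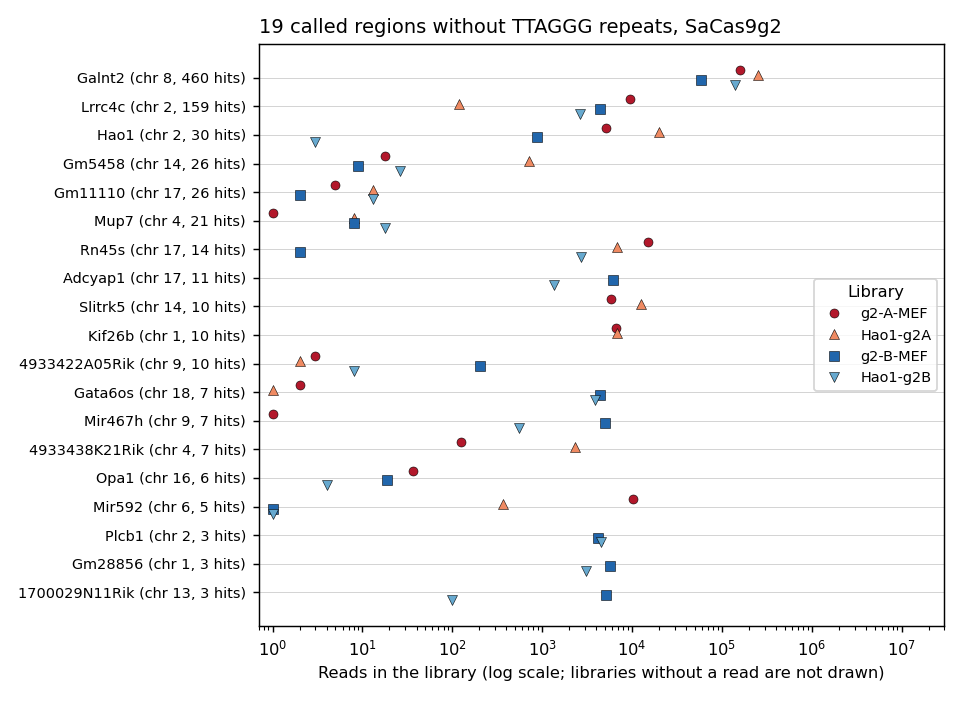
Reads in each SaCas9g2 library (log scale) at 19 of the 20 called regions outside the target without TTAGGG repeats, in order of hits; each symbol is a library. In 10 of those drawn both libraries of 1 letter (reds for A, blues for B) hold at least 99% of the reads, such as Kif26b with 6689 and 6883 in the A libraries and Plcb1 with 4190 and 4540 in the B libraries.

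The other 9 called regions without telomeric repeats drew reads from libraries of both letters. The region with the most hits was the OMT on chromosome 8 (chr8:123425556-123434453), an intron of Galnt2 by the table, with Def8 and Gm20388 at its midpoint by GENCODE. It held 460 hits, with 137 in g2-A-MEF, 92 in g2-B-MEF, 129 in Hao1-g2A and 102 in Hao1-g2B, and 609842 reads, with 159056, 58287, 252248 and 140251 in the same order. It alone took 19.8%, 16.5%, 25.0% and 19.3% of the outside reads of these libraries. The paper reported many mismatches and an unmatched PAM at the predicted cut site in this region. Its long-read sequencing there showed no off-target editing in edited MEFs or edited liver cells. The authors therefore regarded these fusions as most likely an artefact of the assay. That reading was not tested here. Second by hits was the region labelled Lrrc4c (a synaptic adhesion gene) at chr2:98662052-98667558, with 159 hits (47, 44, 20 and 48) and 9501, 4349, 118 and 2634 reads. Of its 31-base words 68.4% occur elsewhere in the genome, so its reads may belong to other copies.

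A region 10.4 kb from the target (chr2:134557458-134559708) held 30 hits, with 5142, 871, 20217 and 3 reads. Its reads thus differed widely between libraries, and only 2 of its hits came from Hao1-g2B. Gm5458 (chr14:19415511-19419951) held 26 hits and 18, 9, 718 and 26 reads. The ribosomal RNA gene Rn45s (chr17:39843078-39848007) held 14 hits and 15230, 2, 6845 and 2713 reads. 4933422A05Rik had 10 hits with 202 of 215 reads in g2-B-MEF, and the Opa1 region (a mitochondrial fusion gene) 6 hits with 37, 19, 0 and 4 reads.

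Gm11110 and Mup7 had few reads per hit, as did several telomeric regions described next. Gm11110 (chr17:57099929-57100448, intron) held 26 hits from 33 reads, at 5, 2, 13 and 13 in g2-A-MEF, g2-B-MEF, Hao1-g2A and Hao1-g2B, and none of its 31-base words occurs elsewhere. The Mup7 region, near a gene of the major urinary proteins (chr4:60081531-60082113), held 21 hits from 35 reads at 1, 8, 8 and 18. It contains a tandem run of 108 bp of the GGCAGA unit printed above, and 93.9% of its 31-base words occur elsewhere. Regions with at most 5 reads per hit numbered 27 of 495 (5.45%), against 6 of 167 (3.59%) with SaCas9g1+g2 and 3 of 65 (4.62%) with SaCas9g1. Of the 27, 8 were called, where 6.05% of all regions were. However, 4 of the 27 were read in 3 libraries and 11 in all 4. Of all regions read so widely, 27.3% and 75.0% were called.

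Telomeres end each chromosome in long tandem arrays of TTAGGG, and shorter stretches of that repeat lie inside chromosomes as interstitial telomeric sequences. Among the 495 regions, 22 (4.44%) contained at least 2 TTAGGG units in a row on either strand, a search chosen after the called sequences were seen. The same motif was present in 1262 of 5252559 windows of 504 bp that tile the genome (0.0240%). Windows with an unlettered base were left out, and motifs across a window edge were not counted. The regions were not limited in this way, and most telomeric ones were wider than 504 bp, so the window share is only a rough reference. A single TTAGGG unit was present in 106 regions (21.4%) and in 18.1% of the windows. All 22 regions kept the repeat with 3 units in a row required, and 21 with 4 units, for which the windows gave 0.00742% and 0.00503%. The match describes the sequence and does not locate the break within the region.

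These telomeric regions were the recurrent ones. Of the 22, 14 were read in all 4 libraries and 5 in 3, so they made up 19 of the 35 regions (54.3%) read in at least 3 libraries. Of the 460 regions read in 1 or 2 libraries, 3 (0.652%) were telomeric. Called were 9 of the 22 (40.9%), against 20 of the other 473 (4.23%) and 6.05% over all regions. These shares do not compare like with like. A call needs 2 libraries, and 312 regions, 2 of them telomeric, were read in 1 library only. Among the 24 regions read in all 4 libraries, each of the 10 without the repeat was called, but not each of the 14 telomeric ones. Over all 22 telomeric regions, the hits were many and the reads few. The median telomeric region had 9.5 hits, 32.5 reads and 4.06 reads per hit, while the median of the other regions was 3 hits, 3700 reads and 886 reads per hit. Together they held 274 hits, 9.14% of all hits outside the target, but 1466 reads, 0.0507% of the reads there. In g2-A-MEF, g2-B-MEF, Hao1-g2A and Hao1-g2B, 22, 17, 19 and 17 of them were read, with 530, 168, 415 and 353 reads in all.

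The A630089N07Rik region at the end of chromosome 16 (chr16:98107259-98107967) was the richest, with 53 hits and 107 reads in g2-A-MEF, 42 in g2-B-MEF, 103 in Hao1-g2A and 99 in Hao1-g2B. Its array runs for 228 bp up to the last base with a letter in the assembly. The Ankle1 region, which lies between genes (Ankle1 encodes an endonuclease), held 32 hits and 23, 6, 7 and 19 reads. The Cdh12 region, named after a cadherin gene, held 22 hits and 14, 29, 204 and 109 reads. The Plk2 region, named after a polo-like kinase, held 20 hits and 9, 10, 6 and 9 reads. At Plk2 the 4 libraries thus lay close together, whereas at Cdh12 both Hao1-named libraries were far above the others.

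Fusions lay in or at a gene at 4 of the 9 called telomeric regions. At Phf21a, a histone reader of a repressor complex, the repeat lay within 1 kb of the gene start (16 hits; 9, 2, 11 and 6 reads in g2-A-MEF, g2-B-MEF, Hao1-g2A and Hao1-g2B). At Ttll10, a tubulin-modifying enzyme, it lay in a coding-gene exon (15 hits; 10, 1, 22 and 9 reads) and the units of its array are preceded by the variant AGGGTG. At Col4a6, a type IV collagen chain, it lay in an intron (13 hits; 2, 2, 27 and 14 reads), as at Pepd, a peptidase (12 hits; 41, 11, 5 and 31 reads). The last called region, near the G protein subunit gene Gng4, was not read in g2-B-MEF (13 hits; 10, 0, 5 and 10 reads). Per 100 on-target hits, the 9 called regions together had 9.50 hits in g2-A-MEF, 2.94 in g2-B-MEF, 3.00 in Hao1-g2A and 5.93 in Hao1-g2B.

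Among the 13 uncalled telomeric regions, Lama1, a laminin chain, had 13 hits from 15 reads, and Gm14496 and Fgf14 had 10 and 9 hits from 14 and 21 reads, each with reads in all 4 libraries. Wdr76, Cox8c and Sema6d were also read in all 4. Efhb, Rfc3, Galnt5 and 1700065L07Rik were read in 3, Gm12633 in 2, and 4933402J10Rik and Nxpe4 only in g2-A-MEF with 100 and 76 reads. At 4 of the 22 regions (A630089N07Rik, Gm14496, Fgf14 and Rfc3) the region ran past the last base with a letter into the gap that ends the chromosome in the assembly, with arrays of 228, 240, 396 and 132 bp, and 18 lay elsewhere. With SaCas9g1+g2, 8 of 167 regions (4.79%) were telomeric, 1 at such an end and 7 elsewhere. With SaCas9g1, 12 of 65 (18.5%) were, 10 at an end and 2 elsewhere. Of the telomeric regions, 9 of 22 were called with SaCas9g2, 3 of 8 with SaCas9g1+g2 and none of 12 with SaCas9g1, where the shares called over all regions were 6.05%, 6.55% and 7.58%. SaCas9g1 had only 2 libraries and a call had to come from both of them, so its count is not comparable with the others. Such arrays resemble each other, and at 8 of the 22 regions at least 50% of the 31-base words occur elsewhere, so a fusion may belong to another array than the one it was placed in.

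**Figure D4:**
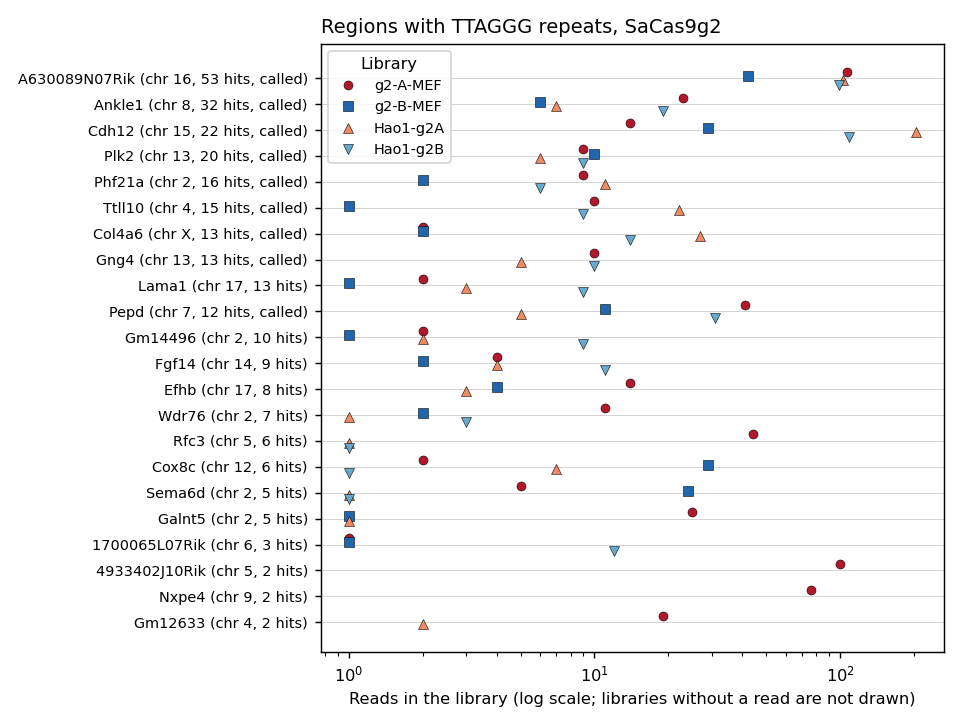
Reads in each SaCas9g2 library (log scale) at the 22 regions with at least 2 TTAGGG units in a row, in order of hits; each symbol is a library. The regions with the most hits have symbols of all 4 libraries, mostly under 100 reads each, and A630089N07Rik has 42 to 107.

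The target chromosome held more regions than any other. Chromosome 2 carried 96 of the 495 regions (19.4%) with 6.74% of the genome's lettered bases, or 53.8 regions per 100 Mb. The other chromosomes carried between 1.13 (Y) and 30.5 (17) per 100 Mb, with a median of 15.3. The share held in every library, with 23.7% of the regions read in g2-A-MEF (42), 21.6% in g2-B-MEF (35), 18.5% in Hao1-g2A (37) and 15.2% in Hao1-g2B (30). It was 31.1%, 24.7%, 24.3% and 21.6% in the SaCas9g1+g2 libraries and 25.0% and 14.3% in the SaCas9g1 libraries, which was above the genome share in each of them too. This pattern too was looked for after the values were seen and is given without a test.

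Along chromosome 2 the regions were densest near the target, and beyond 20 Mb their density was still above the median of the other chromosomes. Both sides together, there were 2 regions within 0.1 Mb (10 per Mb), 4 from 0.1 to 1 Mb (2.22 per Mb), 12 from 1 to 5 Mb (1.5 per Mb), 19 from 5 to 20 Mb (0.633 per Mb) and 59 beyond 20 Mb (0.425 per Mb, or 42.5 per 100 Mb). The nearer bins rest on fewer than 20 regions each. The sides differed. At lower coordinates the density was 2.5 per Mb from 1 to 5 Mb, 0.6 from 5 to 20 Mb and 0.359 beyond, whereas at higher coordinates it was 0.5, 0.667 and 0.692 per Mb and so did not fall past 1 Mb. Of the 18 regions within 5 Mb, 13 lay at lower and 5 at higher coordinates than the cut, and 12 were read in 1 library. 3 bore the name of Hao1, and 2 each those of Fermt1, Plcb1 and Shld1, a gene of the shieldin complex that protects DNA ends. The others were Tgm3, Pank2, Slc23a2, 4921508D12Rik, Gpcpd1, Bmp2, Mir3090, Plcb4 and Snap25.

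**Figure D5:**
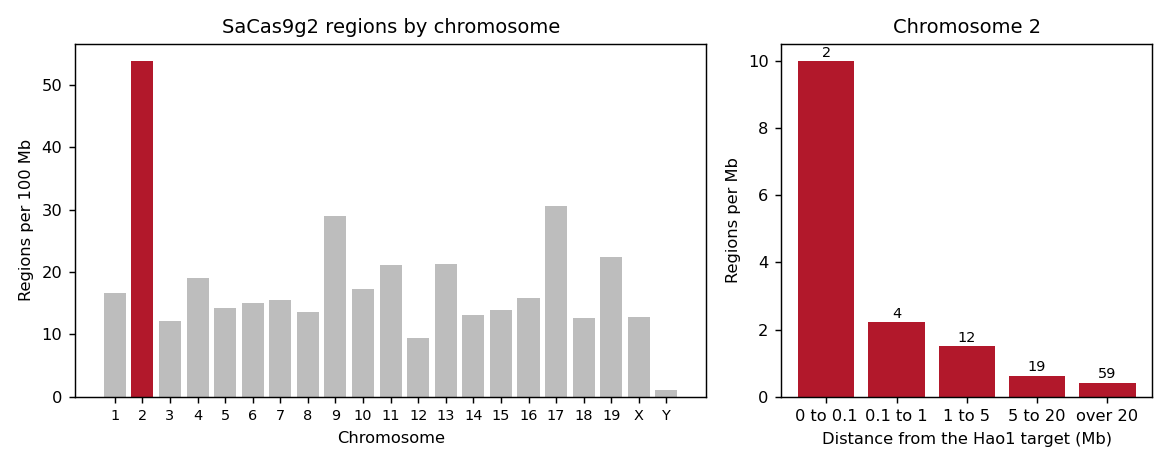
Left, SaCas9g2 regions outside the target per 100 Mb of lettered sequence by chromosome, and right, regions per Mb of chromosome 2 by distance from the target, with the number of regions above each bar. Chromosome 2 reaches 53.8 per 100 Mb, against at most 30.5 elsewhere, and its density over both sides is 10 per Mb within 0.1 Mb and 0.425 per Mb beyond 20 Mb.

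By the deposited annotation, 218 regions were distal intergenic (44.0%, 15 called), 187 intronic (37.8%, 8 called) and 39 exonic (4 called). Promoters within 1 kb held 19 (2 called), while none was called among the 17 in a 3′ UTR, the 1 in a 5′ UTR, and the 7 and 7 at 1 to 2 kb and 2 to 3 kb from a start. Over all regions 6.05% were called, and differences between annotations were not tested. By GENCODE, the midpoint of 257 regions (51.9%) fell in a gene, where genes cover 46.1% of the genome. For coding genes it was 221 (44.6%, genome 39.3%) and for their exons 27 (5.45%, genome 3.63%). The named gene contained the midpoint at only 208 regions (42.0%), so most names give a neighbour. The median GC content of the regions was 42.8% (genome 41.7%) and the median soft-masked share 25.3% (genome 36.4%). At 48 regions (9.70%, 8 called) at least 50% of the 31-base words occur elsewhere. Such regions made up 10 of 167 (5.99%) with SaCas9g1+g2 and 18 of 65 (27.7%) with SaCas9g1.

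An exon or the start of a coding gene lay at 38 regions, of which Phf21a, Ttll10 and Kif26b were called, which is near the 6.05% of all regions. The others mostly had many reads in 1 library. At the start of Actb, which encodes cytoplasmic actin, 9 hits gave 9858 reads. Slbp, the histone mRNA binding protein, had 8 hits and 5126 reads in an exon, and Mas1, a G protein-coupled receptor gene (labelled Airn in the table), 11 hits and 10570 reads. The starts of Bub1, a mitotic checkpoint kinase, Hoxb8, a homeobox factor, and Hsf4, a heat shock factor, had 4 hits each with 10837, 6675 and 5314 reads. Arhgef26 was the only uncalled one read in 3 libraries (9 hits; 5, 1, 0 and 5686 reads in g2-A-MEF, g2-B-MEF, Hao1-g2A and Hao1-g2B).

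Uncalled regions with the most hits were led by Ano2, a calcium-activated chloride channel, with 25 hits and 12212 of 12215 reads in Hao1-g2B. Shld1 had 19 hits and 10410 reads in g2-A-MEF with 1 in g2-B-MEF. The Mir21a region had 19 hits with 128 reads in g2-A-MEF and 936 in g2-B-MEF. It was the single region joining these libraries with at least 10 reads in the lower one. Cdk19, a kinase of the Mediator complex, had 18 hits from 19 reads at 4, 0, 8 and 7, and the Ano3 region 16 hits from 35 reads. Gm4710, E030025P04Rik, Mir6417, Serinc5, Map3k7 and Atpaf2 had 14 to 18 hits with at most 2 reads outside their leading library.

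Regions classed by sequence resemblance were, like 90.5% of all regions, nearly confined to 1 library each. Besides the chromosome 8 region, 7 OMT regions had 2 to 7 hits and 3437 to 8027 reads, and none was called, against 6.05% of all regions: Clic5, Zfp804b, 8430437L04Rik, Dock3, Tnfsf15, Notch2 and Ppp1r7. Each had all its reads in 1 library or all but 1 read. The Zfp804b region had 3437 reads, all in g2-B-MEF. Its alignment printed above differs from the g2 protospacer by C6T, T7C, G11T, A19G and C20A, counted from 1 at the 5′ end of the guide, and at 1 position of the PAM. The 7 HMT regions were Gpnmb with 11 hits, Gm13944, Agbl4, Shld1, Gm12381, Ptgir and a second Lrrc4c region (chr2:96802408-96802908) with 2 to 4. None was called, and each again had all its reads, or all but 1, in a single library.

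Regions inside the genes of 2 lists, one for cancer and one for fragile sites and long genes, are given beside the genome share of each list. Of 115 listed cancer genes, 2 held a region (0.404% of regions, 0.760% of the genome): Notch2, a receptor of cell-cell signalling, with 2 hits and 4906 reads, and the neurotrophin receptor gene Ntrk3 with 2 hits and 4472 reads. Neither was called. Of 68 listed fragile-site and long genes, 12 held 16 regions (3.23% of regions, 2.88% of the genome), and 1 of these regions was called, which is near the 6.05% of all regions. Dmd, the dystrophin gene, held 4 regions of 2 to 4 hits. Wwox, named after its WW domain and oxidoreductase domain, held 2 with 8 and 3 hits and 6276 and 12872 reads. Others were Immp2l, Pard3b, Il1rapl1, Macrod2, Ctnna3, Dab1, Lsamp and Auts2.

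The treatments share their untreated controls, so overlap between their lists is given only as a description. Of the 495 regions, 19 (3.84%) overlapped by at least 1 bp a region of another treatment. Of these 19, 12 were called and 9 telomeric, against 6.05% called and 4.44% telomeric over all regions. These shares do not compare like with like, since a call needs 2 libraries and most of the 19 were read in all 4. With SaCas9g1+g2, 16 SaCas9g2 regions (3.23%) overlapped 16 of its 167 (9.58%). With SaCas9g1, 8 (1.62%) overlapped 9 of its 65 (13.8%).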

How the data were processed

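CAST-Seq libraries of CF-1 MEF genomic DNA were read with 150 bp reads. The submitters' processing notes name Bowtie2 2.3.4.2, bedtools 2.27.1 and the builds GRCh38, hg38 and mm10. All 496 deposited guide alignments were found in GRCm38 within 1000 bases of their stated position, so positions are mm10. The authors deposited counts without normalization, as reads per region and library and hits per region, with hits per library for called sites only. A deposited alignment score says how well the guide fits a region and was not used as an outcome. The deposited p-value columns of the authors hold tests against untreated cells and of guide alignments, and only membership in the list of called sites was taken from them. Read counts in untreated MEFs were not analysed here. The blank line of the SaCas9g2 table (1) was left out.

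Libraries were grouped by treatment from the labels and compared with exact two-sided permutation tests of the difference of means over libraries (those with the single SaCas9g1 culture are not printed), with Benjamini-Hochberg adjustment over 6 comparisons and a threshold of 0.05. Depth was 732585 to 1716787 reads per SaCas9g2 library, and shares have exact Clopper-Pearson 95% intervals. Gene positions are from GENCODE vM21. Multicopy sequence was measured as the percent of 31-base words found elsewhere in GRCm38. TTAGGG units were searched on both strands, against tiled windows of 504 bp without unlettered bases. Named regions were the target, regions read in all 4 libraries, called, OMT and HMT regions, the 10 uncalled regions with the most hits and with the most reads, up to 15 at exons or starts of coding genes, and regions in the gene lists. Regions near the target, read in 3 libraries or joining libraries of 1 letter, and telomeric regions, were named after their values were seen. Some named regions and sequences are not reported here. The members and lists were chosen with earlier results of these data known. Computations used SciPy 1.17.1, NumPy 2.4.6, pandas 2.3.3, numba 0.67.0 and Matplotlib 3.10.9 under Python 3.11.15, and the permutation test and the repeat search were tested on simulated data. Alternatives were other read minimums, flanking regions as on-target, the chromosome 8 region left out, called regions only, a log2 ratio, thinned reads, other limits for genes, overlap, hits and repeats, and each library left out.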

Additional observations from a re-analysis of the deposited data

Results flagged for a closer look

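Reads at the 24 regions read in all 4 SaCas9g2 libraries, and 10 summaries of the SaCas9g2 and SaCas9g1+g2 libraries, were searched for a library apart from the other 3. It was found at 5 regions. Chance flags about 1 in 20 groups where values are normally distributed. Raw read counts that carry PCR amplification need not follow that rate, so the 5 cannot be read as an excess. Regions read in fewer libraries, most of which have nearly all their reads in 1, were not searched. The A630089N07Rik region at the end of chromosome 16 had 42 reads in g2-B-MEF, against 99 to 107 in the others. Reads were not scaled to depth in this search. The g2-B-MEF library was the shallowest, with 732585 reads over all regions against 1199688 to 1716787 in the others. Gm5458 had 718 reads in Hao1-g2A, against 9 to 26. 4933422A05Rik had 202 reads in g2-B-MEF, against 2 to 8. The Gm14496 region had 9 reads in Hao1-g2B, against 1 to 2. The Mir592 region had 10333 reads in g2-A-MEF, against 1 to 365. The cause was not tested.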

How the results depend on the processing

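No paired analysis was possible because the library names carry no replicate number. Of 104 recomputed values, 96 kept their direction and, where tested, their side of 0.05, or, where a count, stayed within 1.5 times the main count. None reversed. These numbers of libraries did not allow an adjusted p below 0.05 in any setting. Keeping that side was therefore fixed in advance and says nothing about stability. Regions read in at least 2 libraries were 183 at 1 read, 80 at 2 reads and 26 at 10 reads, and 89 to 131 with a library left out (89 without Hao1-g2A, 91 without Hao1-g2B), which leaves fewer libraries to share. Called regions were 30, or 19 with reads in every library required. Regions with few reads per hit were 27, or 43 at a limit of 10. Multicopy regions were 48, or 8 at 90% and 151 at 10% of 31-base words, and 34 to 43 with a library left out.

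Several differences kept their direction but shrank or grew. With called regions only, the difference in outside reads was 18.8 percentage points against SaCas9g1+g2 and 23.2 against SaCas9g1, where a call had to come from both libraries. That in regions against SaCas9g1 was 97 with at least 10 reads and 93.8 with thinned reads, and against SaCas9g1+g2 it was 84.5 and 77.6. With each base counted once, the difference from SaCas9g1+g2 in mean GC, weighted by region width, was -1.77 (adjusted p = 0.0571 by an exact permutation test).

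With a library left out, the difference in outside reads ran from 28.4 to 34.9 percentage points against SaCas9g1+g2 and from 43.3 to 52.6 against SaCas9g1, that in regions from 107 to 122 and from 135 to 160, and that in median GC from -1.55 to -0.67 and from -2.54 to -0.26. Regions in genes ran from 213 to 222, overlapping regions stayed at 19, telomeric regions ran from 20 to 22 and chromosome 2 regions from 73 to 87. No setting with a test passed 0.05 after adjustment, the lowest adjusted p of the exact permutation tests being 0.0571. These numbers of libraries allowed no lower value. The list of called sites cannot be remade without a library, since it rests on the authors' tests.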
